A study of Mus musculus with 2 samples.

Results

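Synaptotagmins and Doc2b are tandem C2 proteins that couple calcium entry to the fusion of secretory granules. The rule took every gene whose symbol in the deposited tables was Syt1, Syt2, Syt3, Syt4, Syt5, Syt7, Syt9, Syt11, Syt13 or Doc2b. All 10 were listed once, among 55487 genes. Both libraries came from sorted islet beta cells of mice 2 months old, with cells of males and females pooled. The mice carried floxed alleles that the labels write as MytF/F, Myt2F/F and Myt3F/F, together with RipCre. The alleles are those of the zinc-finger factors Myt1, Myt1l and St18, and RipCre is a Cre recombinase driven by the rat insulin promoter, which acts in insulin-producing cells. The question of the study was the set of genes that need these factors in beta cells at normal blood glucose. Both libraries form 1 group, control beta cells were not analysed here, and no value below compares mutant with control cells.

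A synaptotagmin is anchored in a membrane by its N-terminal part and carries a pair of C2 domains, in its cytosolic part. In the calcium-binding members, acidic residues in the loops of these domains hold calcium ions, the loops then enter the membrane, and the protein acts on the SNARE complex to trigger fusion. Members differ in calcium affinity and several bind calcium weakly or not at all. In beta cells, calcium enters through voltage-gated channels after glucose closes the ATP-sensitive potassium channels, and the sensors on insulin granules set how strongly that calcium drives secretion.

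Library 1 held 50121771 counted reads and library 2 held 39003197. A count of 0 would allow up to 3 reads, which is 0.0599 CPM (a gene's reads scaled to a common library total) in library 1 and 0.0769 CPM in library 2. Library 2 is named a duplicate, with no word on whether its mice were others, so the spread between the libraries may be technical. Transcripts of the targeted genes were counted in both libraries, with 77.6 and 65.4 CPM for Myt1, 44.5 and 39.0 CPM for Myt1l, and 72.7 and 56.5 CPM for St18. These counts sum all exons and do not check the deletion. All 10 of the listed beta-cell markers reached 1 CPM in both libraries. Markers of other cells were also counted, with summed levels in library 1 and library 2 of 1401 and 1158 CPM for 7 alpha-cell genes and 1660 and 1247 CPM for 5 delta-cell genes. The 3 PP-cell genes summed to 979 and 1215 CPM, and the 5 neuronal genes to 2.93 and 2.15 CPM, with none of the 5 at 1 CPM in both libraries. No marker of any list was at 0 in both libraries. In such bulk samples, fewer cells of a type and less RNA per cell cannot be told apart.

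Promoters of 5 members, Syt1, Syt2, Syt3, Syt9 and Syt11, matched by symbol in RefSeq's table for GRCm38.p6. The stretch of 250 bases before the RefSeq start is shown for Syt9, the member that differed most between the libraries. It is also shown for Syt1, the sensor best known from synapses, which was near the bottom of the order. In GENCODE M21 both genes begin inside their stretch, at 107370728 for Syt9 and 109010982 for Syt1. Capitals mark CpG dinucleotides, and each stretch runs 5′ to 3′ on the strand of its gene.
Syt9, chr7:107370540-107370789, plus strand: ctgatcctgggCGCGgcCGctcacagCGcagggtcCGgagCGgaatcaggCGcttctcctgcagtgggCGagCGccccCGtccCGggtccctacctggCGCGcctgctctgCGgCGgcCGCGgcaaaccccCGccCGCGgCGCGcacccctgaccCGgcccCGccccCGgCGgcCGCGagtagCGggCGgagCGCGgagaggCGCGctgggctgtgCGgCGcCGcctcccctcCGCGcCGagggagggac
Syt1, chr10:109010976-109011225, minus strand: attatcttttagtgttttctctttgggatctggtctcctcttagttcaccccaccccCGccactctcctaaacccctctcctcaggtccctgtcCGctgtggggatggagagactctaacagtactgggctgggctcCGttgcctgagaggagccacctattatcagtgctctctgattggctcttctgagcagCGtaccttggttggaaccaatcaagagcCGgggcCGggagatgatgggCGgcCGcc
The Syt9 stretch held 40 CpG dinucleotides and the Syt1 stretch held 8, against a median of 6 over the 32851 promoters of the table. Only 1.09% of all promoters in the table had more CpG than Syt9. A second Syt1 start, with the stretch chr10:109009112-109009361, had 5. Of the other matched members, Syt2 had 30 and 22 at its 2 starts, Syt11 had 9 and Syt3 had 8. In GENCODE M21 Syt11 begins at 88775164 on the minus strand, so its stretch, chr3:88772600-88772849, lies inside the gene. The stretches of the second Syt1 start and of the Syt2 start with 22 CpG also lie inside their genes. Syt1, with 8 and 5 CpG at its 2 starts, had the lowest TPM of these 5 members in both libraries, and Syt3, with 8, had the highest. Syt2 and Syt9, with the most CpG, were below Syt3 and Syt11 in TPM, so the counts of CpG did not follow the order of the levels. The letters AAGTT, the core that Myt zinc fingers recognise, were searched on both strands. They were present in 35.3% of all promoters, once before that second Syt1 start, and in none of the other 6 stretches of the matched members. The GC box GGGCGG, found in 32.7% of all promoters, had 3 matches before Syt9 and 3 and 2 before the Syt2 starts. It had 2 before the RefSeq start of Syt11, 1 before the Syt1 start shown and 0 before the other Syt1 start and Syt3. These letters hold CG on either strand, so each match lies over a CpG dinucleotide by definition. CCAAT, found on either strand in 33.8% of all promoters, had 2 matches before the Syt1 start shown, 1 before a Syt2 start and 0 in the other 5 stretches. No stretch of the matched members held TATAAA, which 12.4% of all promoters hold. A match is a description of letters, not a binding site.

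Length-scaled levels of the 10 genes spanned more than 3 orders of magnitude, with Syt13 at the top and Syt1 and Doc2b at the bottom. In this order by mean TPM (the authors' value, which also scales by gene length), the sequence was Syt13, Syt7, Syt5, Syt4, Syt3, Syt11, Syt2, Syt9, Syt1 and Doc2b. Of the 10 members, 9 reached 1 CPM in both libraries, where 24.4% of all listed genes did so. The ratio of Syt13 to Doc2b on the TPM scale was 1947 in library 1 and 1269 in library 2. Their median level was 16.9 TPM.

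Syt13, an atypical synaptotagmin that lacks most of the calcium-holding residues and has been linked in mice to the formation of islet endocrine cells, carried most of the summed level. It had 1154 TPM in library 1 and 996 TPM in library 2, from 78929 and 53640 reads, a mean of 1075 ± 112 TPM (SD, n = 2). Only 43 of the 55487 genes had a higher mean TPM. The ratio of its TPM to that of Syt7, the next member, was 11.3 in library 1 (exact 95% binomial interval 11.1 to 11.5) and 9.03 in library 2 (8.85 to 9.21). Syt13 (ENSMUSG00000027220) maps to chr2:92915098-92956058 on the plus strand (GRCm38, GENCODE M21), with 6 merged exons. None of its 50-base words occurs in another annotated gene.

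Syt7 was the highest member among those known as calcium sensors. It binds calcium with high affinity, and mice without it secrete less insulin in response to glucose. Syt7 had 102 and 110 TPM in libraries 1 and 2, from 13926 and 11827 reads, a mean of 106 ± 5.69 TPM (SD, n = 2). Both libraries placed it second. Its mean TPM ranked 846 of 55487 genes. On the TPM scale it exceeded Syt1 125-fold in library 1 (exact 95% interval 105 to 150) and 197-fold in library 2 (155 to 254). Syt7 (ENSMUSG00000024743) maps to chr19:10389090-10453180 on the plus strand, with 15 annotated transcripts whose levels a count per gene cannot separate. An antisense gene, Gm26859, covers 5.13% of its exon bases and had 0 reads in both libraries.

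**Figure D1:**
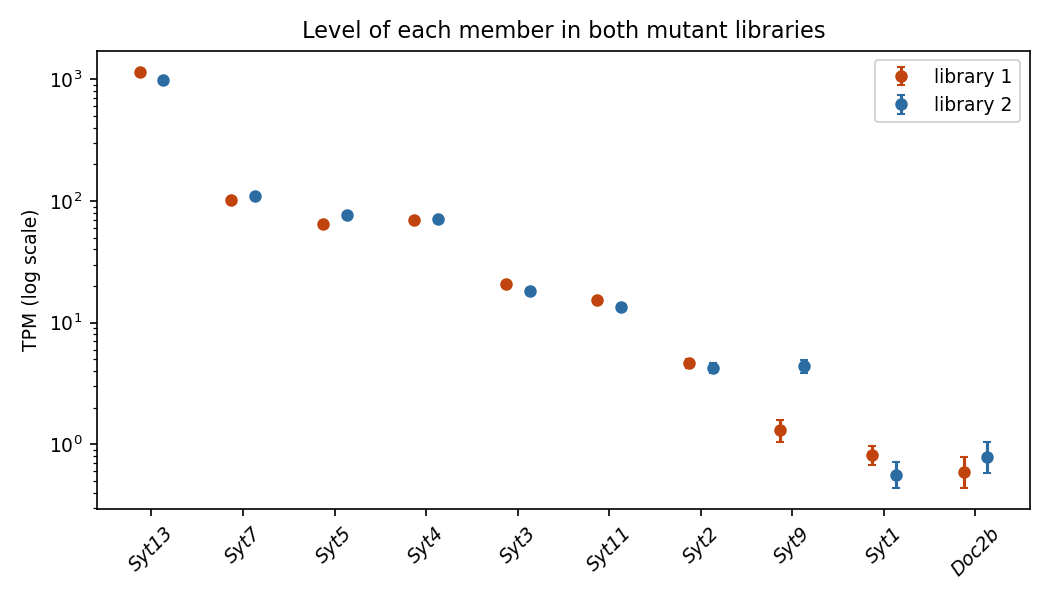
Level of each of the 10 genes in TPM on a log axis, ordered by the mean of both libraries, with a point per mutant library (library 1 left, library 2 right) and exact 95% binomial intervals of the counts as bars. Syt13 stands at 1154 and 996 TPM, Syt7 to Syt4 lie between 64.5 and 110 TPM, and Syt9 is the gene whose libraries stand farthest apart.

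Syt5 and Syt4 shared the next place. Syt5, described on dense-core granules of insulin-secreting cell lines, had 64.5 and 77.5 TPM in libraries 1 and 2, from 2792 and 2641 reads. Syt4 has a serine in place of a calcium-holding aspartate of its first C2 domain, and in mouse beta cells it is known to increase with maturation and to lower the calcium sensitivity of insulin granules. It had 69.8 and 71.0 TPM, from 4942 and 3959 reads, a mean of 70.4 ± 0.863 TPM (SD, n = 2), the smallest relative spread of the 10 genes at 1.23%. Syt4 was higher than Syt5 in library 1 and lower in library 2, so the libraries did not separate the pair. In library 1 the ratio of Syt5 to Syt4 on the TPM scale was 0.924 (exact 95% interval 0.882 to 0.968). In library 2 it was 1.09 (1.04 to 1.15).

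Syt5 (ENSMUSG00000004961) maps to chr7:4539765-4547541 on the minus strand and overlaps no other annotated gene. Syt4 (ENSMUSG00000024261) maps to chr18:31437808-31447406 on the minus strand. The antisense gene Gm26658 covers 14.5% of the Syt4 exon bases and had 37 and 24 reads in its own row. TruSeq DNA kits, named in the labels' protocols, give libraries without strand, so reads from Syt4 and Gm26658 cannot be told apart over those bases.

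Syt3 and Syt11 followed. Syt3, a high-affinity calcium sensor, had 20.7 TPM in library 1 and 18.1 TPM in library 2, from 1176 and 810 reads. Syt11, the closest relative of Syt4 and like it poor in calcium binding, has been linked to vesicle retrieval in neurons. It had 15.2 and 13.4 TPM, from 1442 and 1000 reads. Every Syt3 value was above every Syt11 value, with ratios on the TPM scale of 1.36 (1.26 to 1.47) in library 1 and 1.35 (1.23 to 1.48) in library 2. The Syt4 level exceeded that of Syt11 4.58-fold in library 1 and 5.29-fold in library 2 on the TPM scale. Of the 50-base words of Syt11, 5.92% occur in other genes, while none of Syt3, Syt5, Syt9 or Syt1 do. Syt3 (ENSMUSG00000030731) maps to chr7:44384102-44400187 on the plus strand and Syt11 (ENSMUSG00000068923) to chr3:88744700-88775164 on the minus strand.

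The sensors best known from fast transmitter release were scarce. Syt2, which triggers release at many fast synapses, had 4.62 and 4.24 TPM in libraries 1 and 2, from 642 and 464 reads. Syt1, the main calcium sensor of forebrain synapses, had 0.817 and 0.561 TPM, from 124 and 67 reads. Counting error gave Syt1 an exact 95% interval of 0.680 to 0.975 TPM in library 1. In library 2 it was 0.435 to 0.712 TPM. Syt2 was above Syt1 in both libraries, with ratios on the TPM scale of 5.65 in library 1 and 7.56 in library 2. Reads of Syt1 and Syt2 were nonetheless counted in both libraries, well above the limit of 3 reads. Syt2 (ENSMUSG00000026452) maps to chr1:134646677-134762593 on the plus strand, and Syt1 (ENSMUSG00000035864) to chr10:108497650-109010982 on the minus strand.

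Doc2b, a soluble C2 protein without a membrane anchor that binds SNARE regulators and moves to the plasma membrane when calcium increases, closed the order. It had 0.592 TPM in library 1 and 0.784 TPM in library 2, from 47 and 49 reads. These were 0.938 CPM (exact 95% interval 0.689 to 1.25) and 1.26 CPM (0.929 to 1.66). Both intervals hold 1 CPM, so counting error alone could put either library on the other side of the detection limit. Syt1 was above Doc2b in library 1 and below it in library 2, with ratios on the TPM scale of 1.38 (0.979 to 1.97) and 0.715 (0.487 to 1.06). Doc2b (ENSMUSG00000020848) maps to chr11:75768966-75796049 on the minus strand, and the antisense gene Gm12339, with 3 and 5 reads, covers 5.53% of its exon bases.

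As parts of the members' summed TPM, Syt13 took 80.5% in library 1 and 76.8% in library 2. Syt7 took 7.13% and 8.51%, Syt5 took 4.50% and 5.98%, and Syt4 took 4.87% and 5.48%. The poor calcium binders Syt13, Syt4 and Syt11 held places 1, 4 and 6 of the order, and Syt11 took 1.06% and 1.03%. Syt3 took 1.45% and 1.40%, and none of Syt2, Syt9, Syt1 and Doc2b reached 0.5% in either library. The sum over the 10 genes was 1433 TPM in library 1 and 1296 TPM in library 2.

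Placed among all 55487 genes by mean TPM, the members formed a graded series. Syt13 was in the highest 0.0793% of genes, Syt7 in the highest 1.52%, and Syt5 and Syt4 in the highest 2.56% and 2.59%. Syt3 and Syt11 were in the highest 10.2% and 12.5%, Syt2 and Syt9 in the highest 19.9% and 22.2%, and Syt1 and Doc2b in the highest 30.2%. Most listed genes had few or no reads, so this place of Syt1 and Doc2b rests on 47 to 124 reads a library.

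The spread between the libraries, as the SD over the mean of the TPM, was under 15% for 7 of the 10 members. It was 10.4% for Syt13, 5.35% for Syt7 and 12.9% for Syt5. The exceptions were Syt9 at 76.6%, Syt1 at 26.3% and Doc2b at 19.7%, which are also the members with fewest reads.

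Of the 9 pairs of neighbours in the order, 6 did not overlap between the libraries and 3 did. The overlapping pairs were Syt5 and Syt4, Syt2 and Syt9, and Syt1 and Doc2b. For the last of these, the interval of the ratio includes 1 in both libraries. Without length scaling, Syt4 stood above Syt5 and Syt11 above Syt3, while the first and last places stayed with Syt13 and Doc2b.

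**Figure D2:**
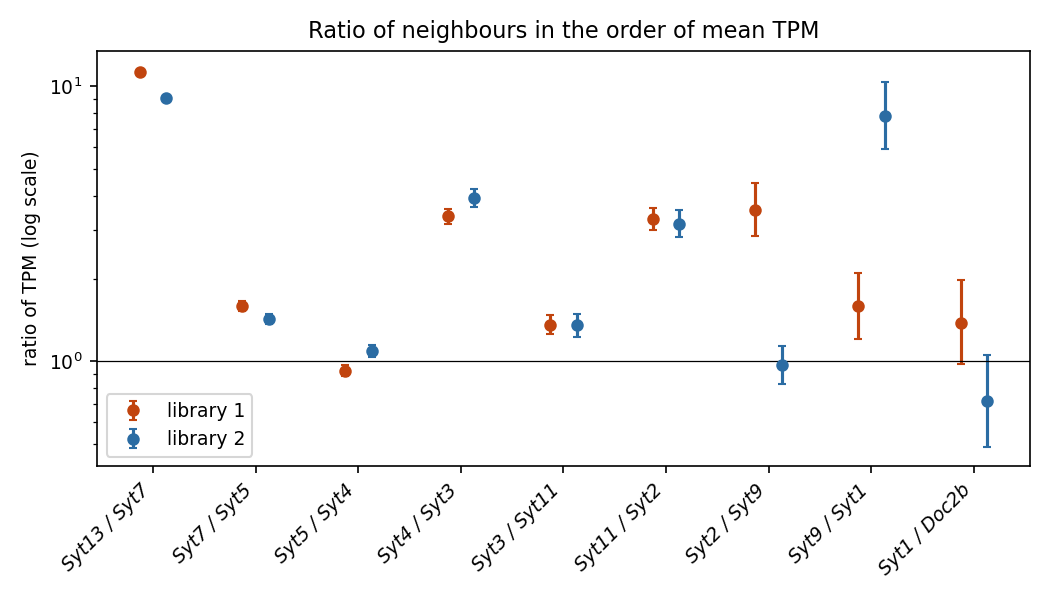
Ratio of TPM between neighbours in the order, on a log axis, with a point per library (library 1 left, library 2 right), exact 95% binomial intervals as bars and a line at a ratio of 1. The pairs of Syt5 and Syt4 (0.924 and 1.09), of Syt2 and Syt9 (3.56 and 0.971) and of Syt1 and Doc2b (1.38 and 0.715) lie on both sides of 1, and the pairs that include Syt9 differ most between the libraries.

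Syt9 was the member whose libraries stood farthest apart. Syt9 has been described on granules of insulin-secreting cell lines, but the names of Syt5 and Syt9 have been exchanged between publications, so a role reported for one may belong to the other. It had 1.30 TPM in library 1 (exact 95% interval 1.05 to 1.59) and 4.37 TPM in library 2 (3.84 to 4.95), from 94 and 249 reads. The level in library 1 was 0.294 times that in library 2 (exact 95% interval 0.229 to 0.374), a log2 ratio of -1.76 for library 1 over library 2 with an adjusted p of 1.5e-25 by the exact binomial test with Benjamini-Hochberg adjustment. Syt9 stood below Syt2 by 3.56-fold in library 1, while in library 2 the ratio of Syt2 to Syt9 was 0.971 (0.830 to 1.14). Syt9 (ENSMUSG00000062542) maps to chr7:107370728-107548656 on the plus strand and overlaps no other annotated gene.

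The test behind that p was run on all 20681 genes with 10 or more reads summed, and it compares the reads of these 2 libraries, not conditions. Its p sets the difference against counting error only. edgeR's common dispersion over both libraries gave a coefficient of variation of 0.181 beyond counting, as a fraction of the mean. A gene was called at an adjusted p under 0.05 and a ratio of 2-fold or more. Of the tested genes 4.31% were called, 1.91% lower in library 1 and 2.40% higher in it. Among tested genes that averaged at least 1 CPM, 2.55% were called. Among the 10 members 1 was called, Syt9, lower in library 1. A single call of 10 says nothing about the group. Taken as library 1 over library 2, log2 ratios had a median of 0.03 over the members and 0.04 over all tested genes, and the median size of the log2 ratio was 0.19 over the members and 0.21 over all tested genes.

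Differences of the other 9 members between the libraries were smaller than 2-fold. By adjusted p alone, 7 of the 10 members differed, against 32.4% of all tested genes and 43.8% of the tested genes that averaged at least 1 CPM, so counting depth enters this share. The SD over the mean of the TPM was below that coefficient of variation for Syt13, Syt7, Syt5, Syt3 and Syt11, so these differences exceed counting error and not the common spread between the libraries. The 4 members higher in library 1 were Syt13, Syt3, Syt11 and Syt1, against 19.0% of all tested genes, and the 3 lower in it were Syt7, Syt5 and Syt9, against 13.4%. The ratio of library 1 to library 2 was 1.15 (exact 95% interval 1.13 to 1.16) for Syt13, 0.916 (0.894 to 0.939) for Syt7 and 0.823 (0.780 to 0.868) for Syt5. Syt1 passed narrowly, at a ratio of 1.44 (1.06 to 1.97) with an adjusted p of 0.0495, and did not pass with edgeR's TMM factors (adjusted p = 0.080), DESeq2's size factors (0.080) or without the read minimum (0.084). Syt3 and Syt11 also did not pass with either scaling factor, while Syt4 did. Scaled by the library totals, Syt4, Syt2 and Doc2b did not pass, with ratios of 0.971, 1.08 and 0.746. The interval for Doc2b, 0.489 to 1.14, allows a difference of either direction.

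**Figure D3:**
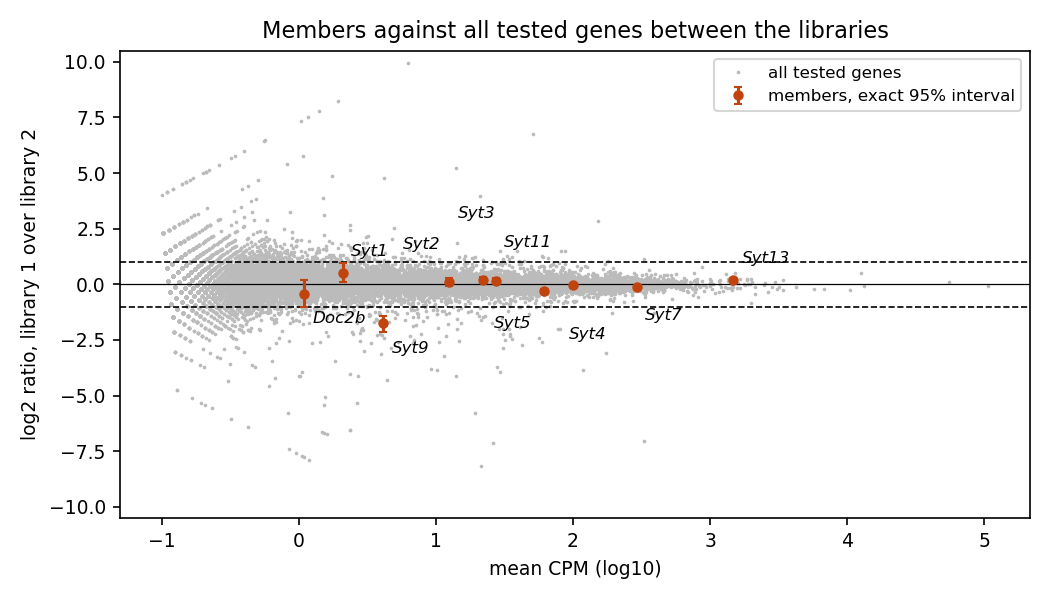
The log2 ratio of library 1 over library 2 against the log10 of the mean CPM, with grey points for all 20681 tested genes, coloured points with exact 95% binomial intervals for the 10 members, and dashed lines at 2-fold. Syt9 lies below the lower line at -1.76 and the other 9 members lie between the lines.

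Acinar and ductal markers, like Syt9, had lower CPM in library 1, and 2 libraries cannot measure likeness of pattern. The 7 acinar genes, of which 6 reached 1 CPM in both libraries, gave a sum of 94.3 CPM for library 1 against 463.5 CPM for library 2, with Cpa1 at 10.9 and 51.3 CPM. All 5 ductal genes had lower CPM in library 1, with sums of 686 and 997 CPM, most of it Spp1 at 659 and 967 CPM. By adjusted p alone 3 of them differed, none was called, and Cftr was nearly level at 19.5 and 19.8 CPM. The delta-cell marker Lepr was also lower in library 1, at 6.92 and 23.4 CPM, while Sst had 1515 and 1100 CPM. Beta-cell markers summed to 181616 and 186063 CPM, and none was called. By adjusted p alone all 10 of them differed. Of these, 3 were higher in library 1, with Slc2a2 at 885 and 632 CPM. The other 7 were lower in library 1, with Mafa at 810 and 995 CPM. In the other direction, the endothelial list summed to 28.1 and 21.0 CPM, the immune list to 51.6 and 43.5 CPM and the mesenchymal list to 12.9 and 8.64 CPM, each with 1 gene called higher in library 1 (Pecam1, Lyz2 and Col1a2). The glial list summed to 46.2 and 40.4 CPM. The part of other cells in the Syt9 difference was not tested.

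The members were also placed beside their tandem C2 relatives. A list of 19 further genes held the remaining synaptotagmins, the other Doc2 genes, rabphilin, the synaptotagmin-like proteins and the extended synaptotagmins. Of these, 11 reached 1 CPM in both libraries. The 10 members made up 73.2% of the summed TPM of all 29 genes in library 1 and 70.8% in library 2, most of it from Syt13.

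The highest of the 19 genes by mean TPM was Sytl4, or granuphilin, which docks insulin granules through Rab27a, with 189 and 204 TPM in libraries 1 and 2. Esyt1, which tethers the endoplasmic reticulum to the plasma membrane, had 122 and 119 TPM, and Sytl1, another Rab27 effector, had 119 and 118 TPM. On the TPM scale all 3 were above Syt7 in both libraries and below Syt13. Without length scaling Sytl1 was below Syt7, at 108.7 and 108.9 CPM against 277.8 and 303.2 CPM, while Sytl4 and Esyt1 stayed above it. Among the remaining synaptotagmins Syt14, which does not bind calcium, was the highest at 19.2 and 17.4 TPM, and it was chosen for mention after its values were seen. Syt8 had 0 reads in library 1 and 1 read in library 2. Between the libraries 1 of the 18 tested genes of this list was called, Sytl2, at 0.160 and 0.692 CPM (8 and 27 reads), lower in library 1 with an adjusted p of 0.00057 by the exact binomial test. The acinar and ductal markers were lower in library 1 too, and the part of such cells in the Sytl2 difference was not tested.

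**Figure D4:**
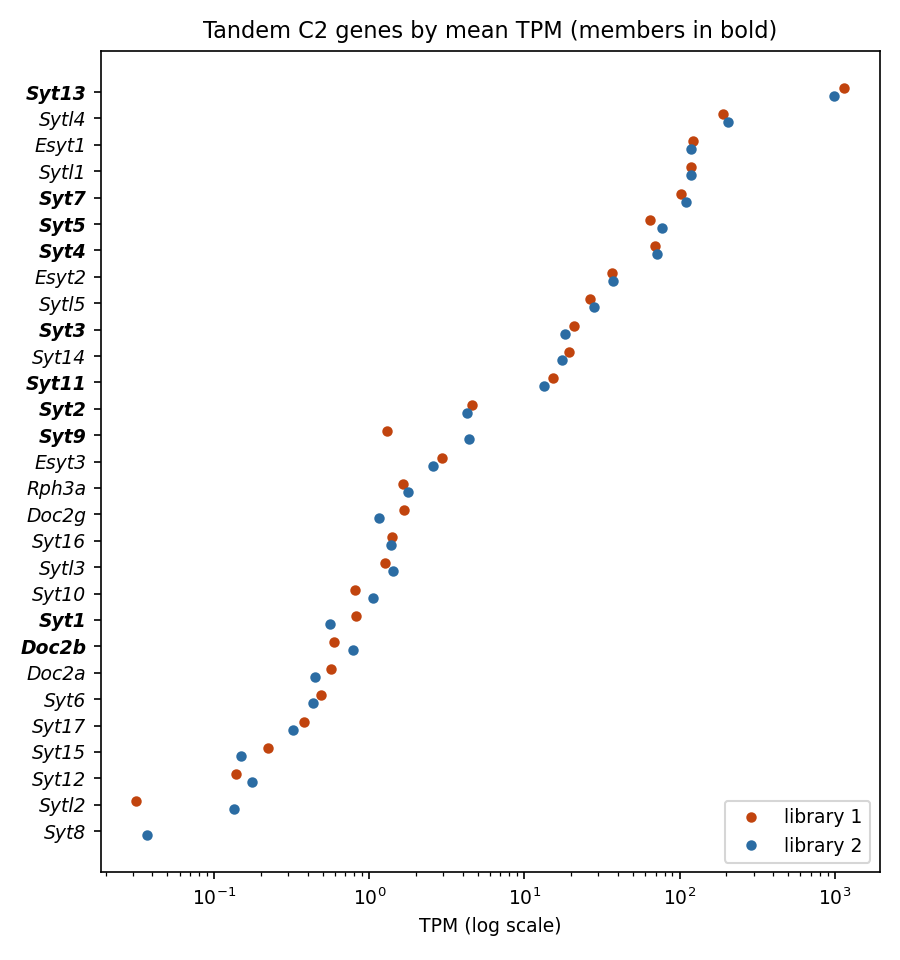
TPM on a log axis of the 29 tandem C2 genes, ordered down the page by mean TPM, with a point per library (library 1 upper, library 2 lower) and the 10 members in bold. Syt13 leads at 1154 and 996 TPM, Sytl4, Esyt1 and Sytl1 lie between it and Syt7, and Syt8 has no point for library 1 because its count there was 0.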

How the data were processed

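RNA sequencing measured sorted islet cells in 2 libraries of 1 group, grouped by the genotype label. Per the submitters' processing notes, the tools were featureCounts 2.0.2, STAR 2.7.8a and cutadapt 2.10, on build GRCm38.p6. Parameters, strand setting and the treatment of reads with several matches were not stated. Per the file headers, the authors deposited raw read counts, TPM and CPM values for 55487 genes. The deposited CPM equals the count over the library total. The deposited TPM matches merged exons of GENCODE M21 (the length implied in library 1 lay within 1% for 98.3% of 16229 genes with more than 20 reads), and 55227 identifiers were found there.

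Levels are given per library with exact Clopper-Pearson intervals at 95% for the count share, carried to TPM by its length factor, and these intervals, the p-values and the floor of 3 reads cover counting error only. Ratios between genes of a library, and between libraries, use the same exact intervals. The libraries were compared for each gene with 10 or more reads summed by a two-sided exact binomial test given the library totals, with 0.5 read added in the log2 ratio and Benjamini-Hochberg adjustment over all tested genes. edgeR's quasi-likelihood test needs a second group and was not run. The procedure was tested on simulated data that held counting error only, so that check does not cover spread between libraries beyond counting. Tools were Python 3.11.15, scipy 1.17.1, R 4.3.3, edgeR 4.0.16 for scaling factors and the common dispersion, and DESeq2 1.42.0 for scaling factors only.

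The members and gene lists were chosen with earlier results of these data known. Named were all 10 members, the 3 highest genes of the further tandem C2 and partner lists by mean TPM, and called genes. Some of the partner genes this rule names are not reported here. With 2 libraries, likeness of pattern between genes could not be measured. A planned split of the members by calcium-holding residues was not made, because no protein sequences were used here. Other alternatives were scaling, read minimum, fold minimum, reads added, detection limit, length scaling and leaving out each library.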

Additional observations from a re-analysis of the deposited data

How the results depend on the processing

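Syt9 was called lower in library 1 under all 7 settings of the test, with a log2 ratio of -1.76 that became -1.81 with edgeR's TMM factors and with DESeq2's size factors. The count of genes called between the libraries, 892, became 1664 with a 1.5-fold minimum and 6699 with no fold minimum, where 7 members rather than 1 were called. By adjusted p alone, 5 members passed with either scaling factor, with Syt4 gained and Syt1, Syt3 and Syt11 lost, and 6 passed without the read minimum, with Syt1 lost. The share of Syt13 in the members' summed level, 78.7% on the TPM scale, was 73.8% without length scaling and 76.8% to 80.5% when 1 library was left out. Detection held for 9 members at 1 CPM, 10 at 0.5 CPM and 7 at 5 CPM, and for 9 to 10 when 1 library was left out. Without length scaling 4 members changed place in the order. Leaving out library 1 moved 4 members and leaving out library 2 moved 2. The test between libraries cannot leave out a library. No paired analysis was possible because there is only 1 group. Depth limits Doc2b and Syt1 most, with 47 to 124 reads a library.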

Other observations

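Partners of the sensors were measured in the same libraries from a list of 20 genes of SNARE proteins, priming factors, complexins and SV2 proteins, of which 16 reached 1 CPM in both libraries. Cplx2, a complexin that clamps and assists SNARE complexes, was the highest by mean TPM, with 324 and 268 TPM in libraries 1 and 2. Vamp2, the granule SNARE, had 215 and 171 TPM. On the TPM scale both were above Syt7 in both libraries and below Syt13. Without length scaling Vamp2 was above Syt7 in library 1, at 297 against 278 CPM. In library 2 it was below, at 239 against 303 CPM.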
